A study of Mus musculus with 6 samples.

Results

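The Ifitm family encodes small interferon-induced transmembrane proteins, and 4 of its mouse genes are described here: Ifitm1, Ifitm2, Ifitm3 and Ifitm6. They were taken by symbol from the 45037 probe sets of the array that are not controls, and each had 1 probe set, so that 4 of the 18193 genes named on the array are covered. The family was chosen by the log2 values of Ifitm1, whose groups had been seen to separate in these same data. Its values, and the same contrast in its 3 relatives, are therefore given as a description with no test.

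IFITM proteins sit in the plasma membrane and in the membranes of endosomes, where they hinder the fusion of enveloped viruses with the cell. Type I and type II interferons induce several of them through transcription factors that bind response elements near the start of the gene, yet many stem cells also express them without added interferon. In the mouse the genes described here lie close together on chromosome 7, and Ifitm1 and Ifitm3 are also known as markers of primordial germ cells.

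The samples were haematopoietic stem cells (HSCs) sorted from mouse bone marrow, 3 of label-retaining cells (LRC) and 3 of non-LRC. All mice carried SCL-tTA, in which the endogenous scl locus drives the tTA-S2 transactivator, together with an H2B-GFP fusion placed behind a tetracycline-responsive element; the mice of both groups had received doxycycline, which shuts the fusion off, for 170 days. Cells of both groups were gated as Lin-, Sca1+, cKit+, CD150+, CD48- and CD34-, and LRC were GFP+ while non-LRC were GFP-. Because the transactivator follows the scl locus, a GFP- cell may have diluted its label or may never have carried it, and these cannot be told apart here. The ages of the mice and whether a sample pooled mice are not given in the sources used here.

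RNA was amplified in 2 rounds and hybridized to 1 Affymetrix array per sample, and levels are the deposited log2 values. Array medians lay between 4.33 and 4.39 and lower quartiles between 2.82 and 3.02. A higher mean in LRC was found for 55.3% of all probe sets, the background for such counts in the gene lists below. The limma fit over all probe sets called 0 of 45037 at an adjusted p under 0.05 (0% of probe sets; smallest adjusted p 0.658), against 1673 (3.71%) at an unadjusted p under 0.05. The hybridization controls, foreign transcripts spiked into every sample, stood at 11.24 on LRC replicate 1 and 11.02 on LRC replicate 3, above LRC replicate 2 (10.60) and the non-LRC arrays (10.58 to 10.70). The LRC replicate 1 array correlated least with the others across probe sets (0.901 to 0.919). Its Gapdh control had the widest gap between 3′ and 5′ probe sets, 4.16 against 2.72 to 3.42 on the other 5 arrays. For the Actb control this gap was -0.04 on LRC replicate 1. On the other 5 arrays it ran from -0.61 (LRC replicate 3) to -0.13 (LRC replicate 2). Of the defining genes of the gate, Kit (means of 9.07 in LRC and 9.05 in non-LRC), Slamf1, which encodes CD150 (6.24 to 8.83), and the HSC genes Procr (10.28 to 11.10), Mecom (9.66 to 10.38) and Hlf (10.70 to 11.54) were well above the array medians on all 6 arrays. Cd48 was near the floor (2.34 to 3.27). Cd34, also negative in the gate, was at 2.52, 6.97 and 5.10 in LRC, against 7.43, 6.60 and 5.62 in non-LRC. Its groups overlapped, and the difference was -1.69 (SE 1.12). Ly6a, which encodes Sca1, is not analysed here.

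The promoters are shown first because the family members differ in the interferon-response letters they hold. Each sequence runs 5′ to 3′ over 300 bases, 250 before the transcript start and 50 from it on, in RefSeq's annotation of GRCm38.p6, and all 4 genes were found there. Capitals mark the core of an interferon-stimulated response element, searched on both strands as GAAA, any 2 bases and GAAA again. Ifitm1 is the gene with separated groups, Ifitm2 and Ifitm3 are its expressed relatives, and Ifitm6 is the relative near the floor.
Ifitm1, chr7:140967826-140968125, plus strand: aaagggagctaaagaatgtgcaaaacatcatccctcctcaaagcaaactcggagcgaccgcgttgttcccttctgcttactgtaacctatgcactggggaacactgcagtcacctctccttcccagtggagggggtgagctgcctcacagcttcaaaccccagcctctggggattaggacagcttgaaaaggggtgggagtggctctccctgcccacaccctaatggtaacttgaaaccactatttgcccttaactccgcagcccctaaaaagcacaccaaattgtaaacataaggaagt
Ifitm2, chr7:140955912-140956211, minus strand: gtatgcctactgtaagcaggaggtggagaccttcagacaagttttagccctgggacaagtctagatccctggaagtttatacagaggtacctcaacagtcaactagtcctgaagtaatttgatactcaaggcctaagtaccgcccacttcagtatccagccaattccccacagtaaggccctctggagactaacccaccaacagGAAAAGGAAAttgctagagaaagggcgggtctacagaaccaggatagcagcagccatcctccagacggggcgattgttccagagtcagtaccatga
Ifitm3, chr7:141010695-141010994, minus strand: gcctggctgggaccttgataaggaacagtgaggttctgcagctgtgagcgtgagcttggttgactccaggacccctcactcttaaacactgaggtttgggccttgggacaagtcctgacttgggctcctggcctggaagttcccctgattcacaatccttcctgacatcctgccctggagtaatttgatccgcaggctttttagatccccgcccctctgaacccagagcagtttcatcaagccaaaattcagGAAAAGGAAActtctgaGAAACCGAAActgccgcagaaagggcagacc
Ifitm6, chr7:141016843-141017142, minus strand: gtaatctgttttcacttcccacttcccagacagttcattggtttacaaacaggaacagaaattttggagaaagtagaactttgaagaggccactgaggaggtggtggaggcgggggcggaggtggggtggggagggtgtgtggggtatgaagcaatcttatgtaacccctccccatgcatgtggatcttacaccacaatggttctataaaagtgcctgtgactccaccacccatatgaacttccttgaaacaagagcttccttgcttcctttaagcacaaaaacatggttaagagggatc

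Ifitm3 held the core at 2 places, GAAAAGGAAA from base +3 and GAAACCGAAA from base +20 of the transcript, and Ifitm2 held GAAAAGGAAA from base -46. The same letters thus stood in both relatives, before the start in Ifitm2 and behind it in Ifitm3. The promoters of Ifitm1 and Ifitm6 held no such match in these 300 bases, which says nothing of other windows. Over all 32851 promoters of this length in the table, 3.44% held the core. Among the interferon-stimulated genes listed further on, 20 of the 44 with a promoter there did (45.5%), against 3.99% of all 27025 genes. A gamma-activated site, searched as TTCNNNGAA, where N is any base, a pattern that is its own reverse complement, was found in Ifitm3 (TTCTGAGAA from base +14, overlapping the second core) and in Ifitm6 (TTCCTTGAA from base -10), and in 8.3% of all promoters. Across the array, the 524 measured genes whose promoter held the core had a median difference between LRC and non-LRC of 0.03 log2, the same as the 13928 genes whose promoter lacked it (0.03).

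Ifitm1 was higher on every LRC array than on any non-LRC array. This gene encodes the family member found mostly at the cell surface. Its level was 10.98, 10.78 and 11.25 in the 3 LRC samples, against 10.29, 10.44 and 10.42 in the 3 non-LRC samples (log2). The groups did not overlap: the lowest LRC value lay 0.33 above the highest non-LRC value. The mean was 11.00 ± 0.24 in LRC samples, against 10.38 ± 0.09 in non-LRC samples (SD, n = 3 each). LRC thus exceeded non-LRC by 0.62 (SE 0.20), or 1.54-fold. Over all probe sets 8.28% had separated groups, 4.88% with LRC higher, and this share is given only as background, since the separation chose the gene. The probe set was brighter than 98.5% to 99.3% of probe sets on every array. As these are bulk samples, more RNA per cell and more cells with the transcript cannot be told apart.

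The spread of Ifitm1 was wider in LRC, where the values covered 0.48 log2 units, than in non-LRC, where they covered 0.16. The LRC values followed the order of the hybridization controls in part: LRC replicate 2, without bright controls, was the lowest of the 3 LRC arrays. Where LRC replicate 2 alone stood for LRC, the difference was 0.39, and with the control level as a covariate it was 0.50. Without LRC replicate 3, the highest, it was 0.49. The part of control brightness in the difference was not tested beyond these values.

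**Figure D1:**
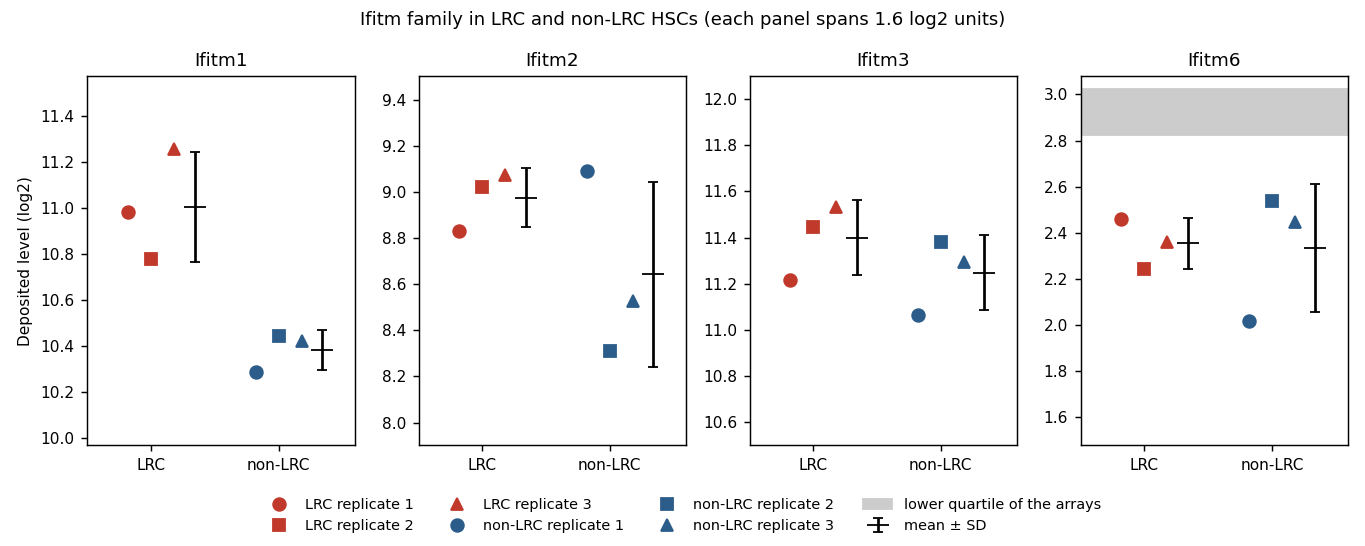
Deposited log2 level (y axis) of Ifitm1, Ifitm2, Ifitm3 and Ifitm6 on each array, LRC left of non-LRC, with the mean and SD of 3 samples in black; the axis does not start at 0. The 3 LRC values of Ifitm1 (10.78 to 11.25) lie above the 3 non-LRC values (10.29 to 10.44), the groups of the other genes overlap, and Ifitm6 lies below the grey band, the lower quartile of the arrays.

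Ifitm2, whose protein acts in late endosomes in human cells, had a higher mean in LRC, but its groups overlapped. Its level was 8.83, 9.02 and 9.07 in LRC, against 9.09, 8.31 and 8.53 in non-LRC. The highest of the 6 values was that of non-LRC replicate 1, which lay above all 3 LRC values, while the other two non-LRC values lay below them. The mean was 8.98 ± 0.13 in LRC samples, against 8.64 ± 0.40 in non-LRC samples (SD, n = 3 each), and LRC exceeded non-LRC by 0.33 (SE 0.25). It was 0.56 without non-LRC replicate 1 and 0.17 without non-LRC replicate 2, so that its size rested on single non-LRC arrays.

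Ifitm3, the best-studied antiviral member, which blocks viruses that enter through endosomes, was among the brightest probe sets of the array in both groups, above 99.2% to 99.5% of them. Its level was 11.22, 11.45 and 11.53 in LRC, against 11.07, 11.38 and 11.30 in non-LRC. The groups overlapped, with LRC replicate 1 below non-LRC replicates 2 and 3. The mean was 11.40 ± 0.16 in LRC samples, against 11.25 ± 0.16 in non-LRC samples (SD, n = 3 each), and the difference of 0.15 (SE 0.19) was smaller than the SD within either group. Leaving out non-LRC replicate 1 gave 0.06, leaving out LRC replicate 3 gave 0.09 and leaving out LRC replicate 1 gave 0.24. Of the members with overlapping groups, Ifitm3 came closest to separation, with its lowest LRC value 0.16 below its highest non-LRC value.

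Ifitm6, which in the mouse is expressed in myeloid cells, was near the floor. Its level was 2.46, 2.24 and 2.36 in LRC, against 2.02, 2.54 and 2.45 in non-LRC, below the lower quartile on all 6 arrays. The means were 2.35 ± 0.11 in LRC samples, against 2.33 ± 0.28 in non-LRC samples (SD, n = 3 each), and no fold is given at this level. The sign of its difference (0.02) was not stable: it was -0.03 after another quantile normalization. The median difference of the 4 members was 0.24, and without Ifitm1, which was chosen for this contrast, it was 0.15, the value of Ifitm3. Over all probe sets the median was 0.04, and nothing is read from the members' median against it.

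Because the members were measured on the same arrays, one probe set can be set against another within each array, which shows unequal change but not which of them changed. Ifitm1 minus Ifitm3 was -0.24, -0.67 and -0.28 in LRC, against -0.78, -0.93 and -0.87 in non-LRC. These groups did not overlap either, with a gap of 0.11, which the choice of Ifitm1 for its separated groups favours. Their means were -0.39 ± 0.24 in LRC samples, against -0.86 ± 0.08 in non-LRC samples (SD, n = 3 each). Ifitm1 minus Ifitm2 was 2.15, 1.76 and 2.18 in LRC, against 1.20, 2.13 and 1.90 in non-LRC. Here the groups overlapped, with non-LRC replicates 2 and 3 above LRC replicate 2. Ifitm3 minus Ifitm2 was 2.42 ± 0.04 in LRC samples, against 2.60 ± 0.56 in non-LRC samples (SD, n = 3 each). That pair thus kept a nearly fixed spacing on the 3 LRC arrays and not on the non-LRC arrays, where it was 1.98, 3.07 and 2.77. The zero of each of these scales depends on how strongly the probes bind, so the spacing is no ratio of transcripts. Ifitm genes are close paralogs, and whether a probe set also bound a relative's transcript was not tested.

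**Figure D2:**
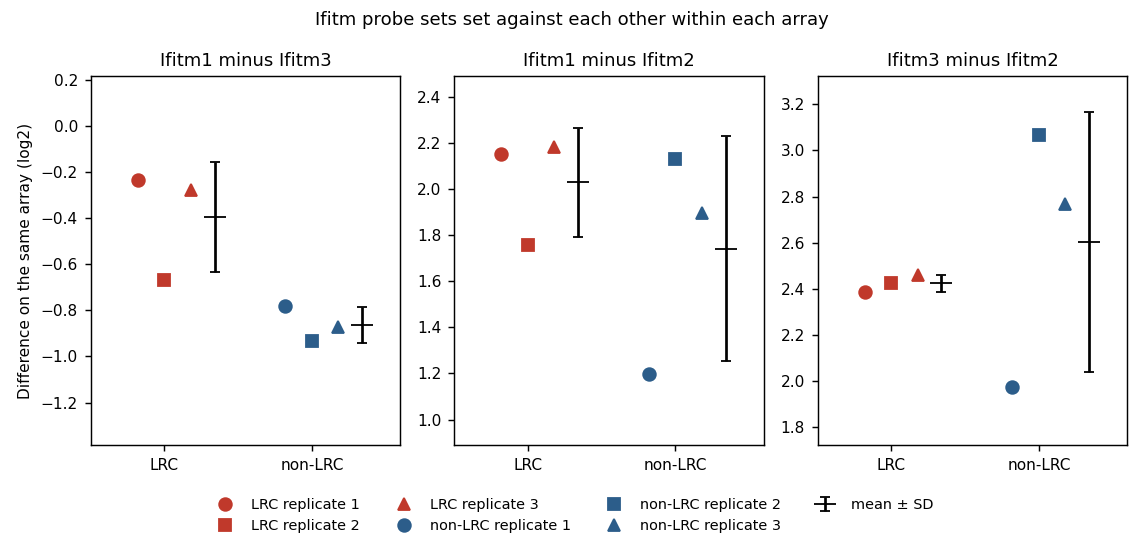
Difference between the log2 values of a pair of Ifitm probe sets on the same array (y axis, spanning 1.6 log2 units in each panel), LRC left of non-LRC, with the mean and SD of 3 arrays in black. Ifitm1 minus Ifitm3 is -0.67 to -0.24 on the LRC arrays and -0.93 to -0.78 on the non-LRC arrays, while the groups overlap for Ifitm1 minus Ifitm2 and Ifitm3 minus Ifitm2.

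Patterns over the 6 arrays were compared by the root mean square distance between mean-centred log2 values, which is 0 for identical patterns. Ifitm1 lay 0.28 from Ifitm3, 0.34 from Ifitm2 and 0.34 from Ifitm6. The 5 genes nearest to Ifitm1, among 12636 of similar spread, were Ntn3 (0.08), a netrin, Snx9 (0.08), a sorting nexin of endocytosis, Bri3 (0.08), 4930431P19Rik (0.09) and Ptf1a (0.10), a pancreatic transcription factor that was below the lower quartile on all 6 arrays. All 5 had separated groups, a direction that choosing them by nearness to Ifitm1 favours. Snx9 was at 5.99, 5.88 and 6.32 in LRC, against 5.17, 5.57 and 5.50 in non-LRC, and Bri3 was at 6.94, 6.84 and 7.14 in LRC, against 6.31, 6.60 and 6.46 in non-LRC. Nearest to Ifitm2 were Acot5 (0.08), Oxct2a (0.08) and Trap1a (0.09), all dim (2.21 to 3.72). Nearest to Ifitm3 were Brf1 (0.04), a subunit of the transcription factor of RNA polymerase III, Rpl7 (0.05), a ribosomal protein, and Timm8a2 (0.05), which was below the lower quartile on all 6 arrays. Lrrc49 (0.05), Eif3e (0.06) and Lrrc14 (0.06) were nearest to Ifitm6. With 6 arrays and so many candidates such near matches are a description of these arrays only.

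**Figure D3:**
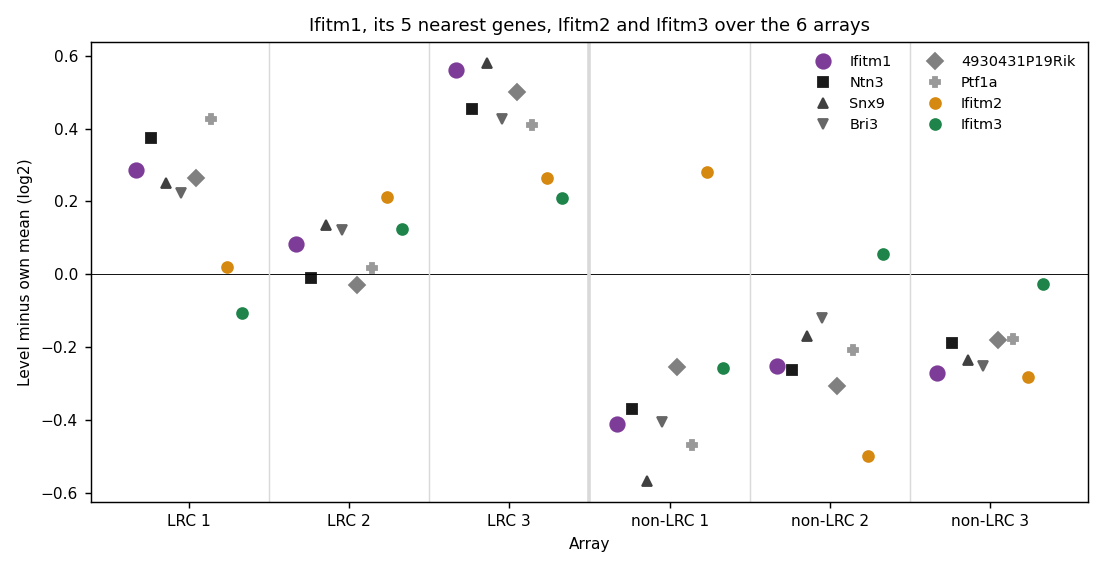
Level minus the gene's own mean over 6 arrays (y axis, log2) for Ifitm1, the 5 genes nearest to it, Ifitm2 and Ifitm3; each column is 1 array, LRC left of the thick line and non-LRC right of it. Ifitm1 and its nearest genes are highest on LRC replicate 3 or LRC replicate 1 and below their mean on all non-LRC arrays, while Ifitm2 is highest on non-LRC replicate 1.

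The Ifitm genes share their stretch of chromosome 7 with other genes, so the neighbours starting within 200 kb of the 4 genes were examined in RefSeq's order. Of 35 neighbours 24 were measured; 15 had a higher and 9 a lower mean in LRC, with a median difference of 0.09 against 0.04 over all probe sets. Without LRC replicate 1 the neighbour median was 0.03, beside -0.01 over all probe sets in the same fit. It was 0.15 without LRC replicate 2 (all probe sets 0.07) and 0.17 without LRC replicate 3 (all probe sets 0.03). Leaving out non-LRC replicate 1 gave 0.17 (all probe sets 0.06), non-LRC replicate 2 gave 0.15 (0.03) and non-LRC replicate 3 gave 0.10 (0.03). None passed the limma threshold in either direction (0% of all probe sets did), and 2 of 24 had an unadjusted p under 0.05, beside 3.71% of all probe sets. In 3 of 24 all LRC values lay above all non-LRC values, and in 0 of 24 below, beside 4.88% and 3.4% of all probe sets. Those 3 lay on the Ifitm6 side of the cluster. B4galnt4, a glycosyltransferase and the first measured gene beyond Ifitm6, was at 5.54, 6.22 and 5.08 in LRC, against 3.79, 3.37 and 4.79 in non-LRC, which put LRC higher by 1.63 (SE 0.45). Pkp3, a desmosomal plakophilin, came next and differed by 0.66 (SE 0.23), although a further Pkp3 probe set ran the opposite way. The gene model Gm33560 differed by 0.40 (SE 0.21).

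On the side of Ifitm2, the nearest measured neighbour was Ifitm5, a bone-specific family member, at 4.30 ± 0.30 in LRC samples, against 3.94 ± 0.34 in non-LRC samples (SD, n = 3 each), with overlapping groups. Beyond it, Pgghg differed by 0.62 (SE 0.52) and Nlrp6, an innate immune sensor, by 0.19 (SE 0.29), although Nlrp6 was below the lower quartile on 5 of 6 arrays. Better expressed neighbours on that side had differences of both signs. Ric8a, a chaperone of G protein subunits, differed by 0.21 (SE 0.24) and Sirt3, a mitochondrial deacetylase, by -0.19 (SE 0.41). Psmd13, a proteasome subunit, differed by -0.25 (SE 0.29) and Bet1l by -0.28 (SE 0.22). All 3 further Bet1l probe sets, 2 of 3 for Psmd13 and 1 of 3 for Ric8a ran the opposite way. On the Ifitm6 side, beyond Pkp3, Sigirr, a brake on interleukin receptor signalling, differed by 0.32 (SE 0.36). Ptdss2, a phosphatidylserine synthase on the same side, differed by -0.05 (SE 0.77), with 2 of 8 further Ptdss2 probe sets of that sign. The remaining neighbours of both sides, Zfp941, Urah, C330022C24Rik, Odf3, Cox8b, Rnh1, Lrrc56, Lmntd2 and Rassf7, differed by -0.38 to 0.22. Cyp2e1, Syce1 and Ano9 were below the lower quartile on all 6 arrays.

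**Figure D4:**
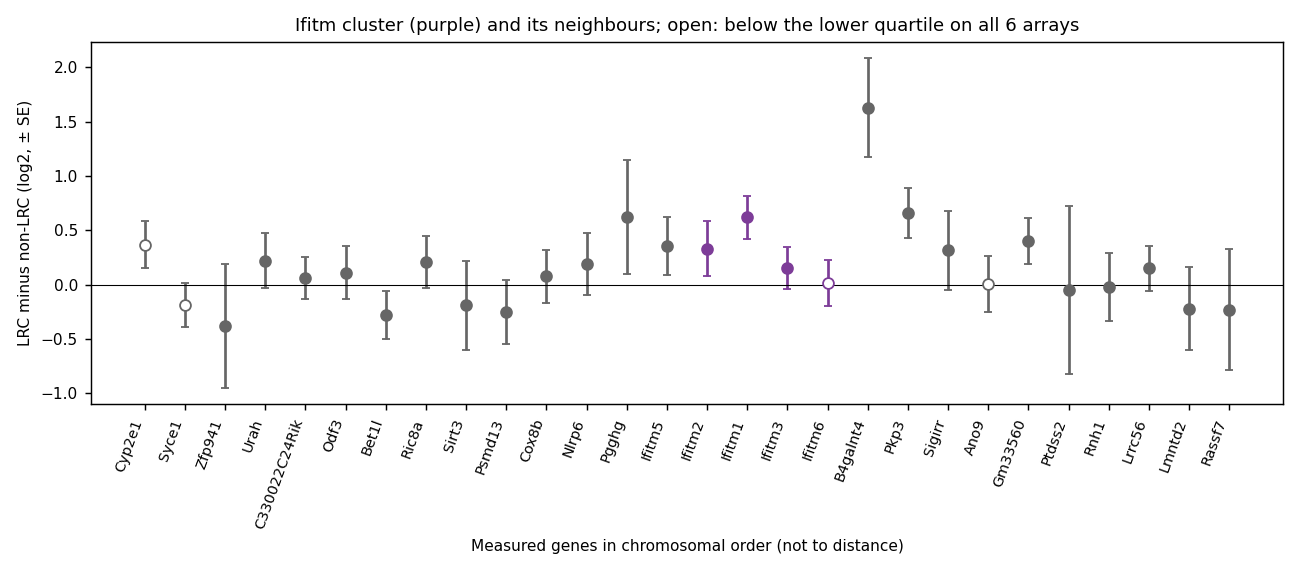
LRC minus non-LRC difference (y axis, log2, with limma's SE) of the 24 measured neighbours and the 4 Ifitm genes in purple, in the order of their starts along chromosome 7 and not to distance; open circles were below the lower quartile on all 6 arrays. Ifitm1 (0.62) and B4galnt4 (1.63) stand on either side of Ifitm3 (0.15) and Ifitm6 (0.02), and no gene shown passed the limma threshold.

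Other genes of the CD225 (dispanin) family, to which the Ifitm genes belong, had differences of both signs. Of 9 listed, 7 were measured; 5 had a higher and 2 a lower mean in LRC (median difference 0.12), 0 passed the threshold and 0 of 7 had separated groups, beside 8.28% of all probe sets. Ifitm7 was at 3.17, 4.67 and 3.24 in LRC, against 3.61, 5.58 and 4.79 in non-LRC. Its groups overlapped, and the difference was -0.97 (SE 0.62). Ifitm10 was at 5.46 ± 0.26 in LRC samples, against 5.26 ± 0.27 in non-LRC samples (SD, n = 3 each). Trarg1, Tmem91, Syndig1 and Syndig1l differed by -0.04 to 0.15.

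Partners of IFITM proteins, known mainly from human IFITM3 and IFITM1, were also examined. Of 10 listed, 9 were measured; 5 had a higher and 4 a lower mean in LRC, and the median difference was 0.02. It was below 0 without LRC replicate 2 (-0.06), LRC replicate 3 (-0.11) or non-LRC replicate 1 (-0.06), and it was 0.07 without LRC replicate 1, 0.07 without non-LRC replicate 2 and 0.11 without non-LRC replicate 3. None passed the threshold, and 0 of 9 had separated groups, beside 8.28% of all probe sets. Nedd4, the ubiquitin ligase that marks IFITM3 for turnover, was at 10.48 ± 0.14 in LRC samples, against 10.46 ± 0.15 in non-LRC samples (SD, n = 3 each). Zdhhc20, a palmitoyltransferase that anchors IFITM3 in membranes, was at 5.46, 7.12 and 7.51 in LRC, against 7.27, 7.24 and 7.21 in non-LRC. Its low mean in LRC came from LRC replicate 1 alone, and 3 further Zdhhc20 probe sets ran the opposite way. Cd81, a tetraspanin found with IFITM1 at the surface, differed by 0.22 (SE 0.23), and Cd9, another tetraspanin, by -0.21 (SE 0.23). The protease Zmpste24 differed by 0.14, the endoplasmic reticulum protein Vapa by 0.10, the methyltransferase Setd7 by 0.08, the kinase Fyn by -0.06 and the endocytic adaptor subunit Ap2m1 by -0.13, each less than its SE. The further Setd7 and Fyn probe sets ran the opposite way, and of 2 for Vapa 1 did.

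The interferon receptors and the factors behind them, which induce Ifitm genes, had 15 of 16 listed genes measured. In LRC the mean was higher for 11 of them and lower for 4, beside 55.3% of all probe sets with a higher mean. The threshold was passed by 0 in either direction. The median difference was 0.35, the value of Usp18 (SE 0.66), against 0.04 over all probe sets. Leaving out LRC replicate 3 gave 0.16, leaving out non-LRC replicate 1 gave 0.20 and leaving out LRC replicate 1 gave 0.55, and it was 0.23 when all probe sets of a gene were averaged. In 2 of 15 all LRC values lay above all non-LRC values and in 0 of 15 below, beside 4.88% and 3.4% of all probe sets. The array means of the list overlapped between the groups, at 6.18 to 6.70 in LRC samples, against 6.13 to 6.41 in non-LRC samples.

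The chains of the type I receptor had differences of opposite sign. Ifnar1 was at 7.22, 6.61 and 8.49 in LRC, against 6.24, 6.91 and 7.01 in non-LRC, but a further Ifnar1 probe set ran the opposite way. Ifnar2, its partner chain, was at 6.82, 8.81 and 7.95 in LRC, against 9.66, 8.54 and 8.47 in non-LRC, and both further Ifnar2 probe sets ran that way too; the groups of both genes overlapped. Ifngr1, of the type II receptor, differed by 0.44 (SE 0.29). The receptor kinases Jak1 and Tyk2 differed by 0.28 (SE 0.21) and -0.38 (SE 0.27); both further Jak1 probe sets shared the sign, and the further Tyk2 probe set did not. Of the factor complex that binds the response element, Stat2 differed by 0.73 (SE 0.56) and Irf9 by -0.49 (SE 1.05), with LRC replicate 1 at 3.65 and the other 5 arrays at 5.91 to 7.82. Irf1, which binds similar letters, was at 7.91, 8.48 and 8.03 in LRC, against 7.58, 7.59 and 7.67 in non-LRC. Irf1 and Irf3 were the 2 genes with separated groups; Irf3, named after its values were seen, differed by 0.62 (SE 0.22), while of 3 further Irf3 probe sets 1 ran that way. Irf7, which amplifies the response, differed by 0.06 (SE 0.24), and Usp18, which damps receptor signalling, by 0.35 (SE 0.66).

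Other interferon-stimulated genes were divided in direction. Of 56 listed 52 were measured; 25 had a higher and 27 a lower mean in LRC, and the median difference was -0.03, against 0.04 over all probe sets, though above 0 in 5 of 15 alternative analyses. It was 0.02 without LRC replicate 3 and -0.17 without non-LRC replicate 1. The threshold was passed by 0 in either direction, and 5 of 52 had an unadjusted p under 0.05, beside 3.71% of all probe sets. All LRC values lay above all non-LRC values in 2 of 52 and below them in 2 of 52, near the shares over all probe sets (4.88% and 3.4%). Oas2, an oligoadenylate synthetase that senses double-stranded RNA, was 1 of the 2 separated upward, at 4.95, 5.10 and 4.81 in LRC, against 4.54, 4.44 and 4.41 in non-LRC. The other was Shisa5 (0.79, SE 0.31), and the 2 below were Rtp4 (-0.92, SE 0.29) and Gbp3 (-0.67, SE 0.19); these 3 were named after their values were seen.

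Classical members of the response leaned either way, with overlapping groups. Ifit1 and Ifit3, which bind viral RNA or support its binding, differed by -0.55 (SE 0.48) and -0.18 (SE 0.24). Rsad2, known as viperin, was at 6.72 ± 0.58 in LRC samples, against 7.38 ± 0.19 in non-LRC samples (SD, n = 3 each), but neither further Rsad2 probe set ran that way. Bst2, the tether of budding viruses, differed by 0.50 (SE 0.36) and Ifi27 by 0.31 (SE 0.27), where a further Ifi27 probe set ran the opposite way. Ly6e, another membrane protein that hinders virus entry, was at 9.11 ± 0.30 in LRC samples, against 9.10 ± 0.15 in non-LRC samples, and B2m, the light chain of MHC class I, at 12.39 ± 0.10 in LRC samples, against 12.44 ± 0.10 in non-LRC samples (SD, n = 3 each). Mx1, a dynamin-like antiviral GTPase, was near the floor on all arrays (2.86 to 3.61). Isg15 is not analysed here.

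**Figure D5:**
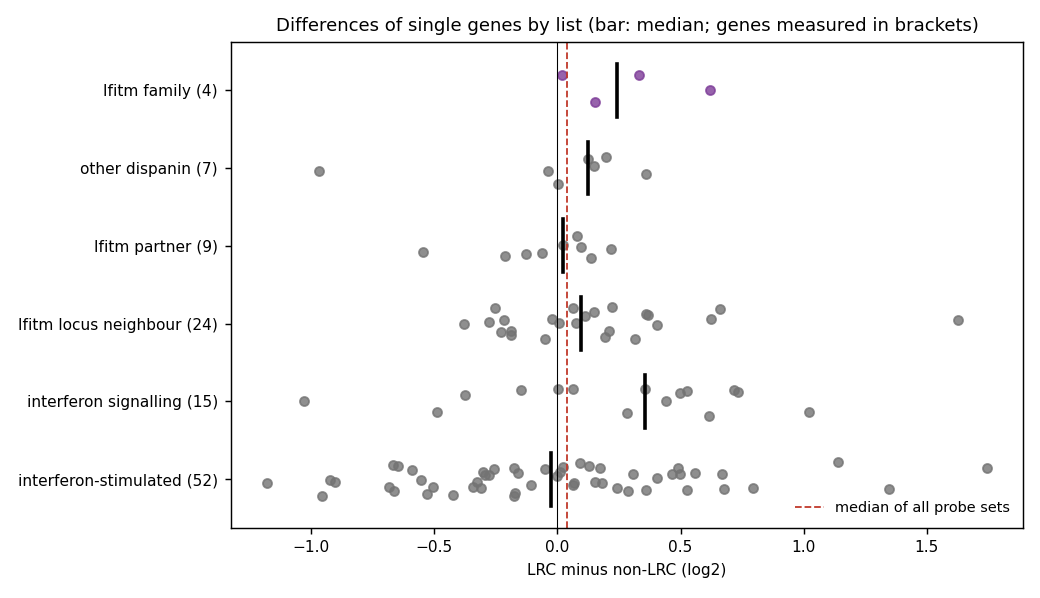
LRC minus non-LRC difference (x axis, log2) of each measured gene in the Ifitm family and 5 related lists, with the median of each list as a black bar and the median of all probe sets (0.04) as a dashed line. The medians are 0.24 for the Ifitm family, chosen for Ifitm1, 0.12 for other dispanin genes, 0.02 for partners, 0.09 for neighbours, 0.35 for interferon signalling and -0.03 for interferon-stimulated genes.

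Markers of other marrow cells, some of which express Ifitm genes, differed between single arrays. Monocyte and macrophage genes (7 of 7) had array means of 4.14 to 5.23 in LRC and 4.13 to 4.74 in non-LRC. The highest mean was that of LRC replicate 3, where Ifitm1 was highest too. Ctss (7.38), Ms4a6c (5.85) and Csf1r (4.47) were highest on that array, but Ccr2 (2.38) was lowest, and F13a1, Lyz2 and Adgre1 were not highest. A further Ms4a6c probe set had a difference of the opposite sign between the groups. Ccr2 and Adgre1 were below the lower quartile on 5 of 6 arrays. Granulocyte genes (7 of 7) had array means of 3.76 to 4.34 in LRC and 3.92 to 4.98 in non-LRC, and erythroid genes (5 of 7) 3.34 to 4.02 in LRC and 3.15 to 4.79 in non-LRC. Both were highest on non-LRC replicate 1, with S100a8 at 8.27 and Car1 at 7.34, though not for every gene listed. Ngp, S100a9 and Mmp9 were highest there too, but Camp (4.10) was lowest, and Ltf and Mmp8 were not highest. Klf1 was at 6.76 there and at 6.21 on LRC replicate 1, and Hba-a1, Alas2 and Slc4a1 were not highest. On non-LRC replicate 1 Ifitm1, Ifitm3 and Ifitm6 were lowest and Ifitm2 was highest. Endothelial genes (6 of 6) had array means of 4.11 to 4.37 in LRC and 4.30 to 4.81 in non-LRC, and stromal genes (6 of 6) of 4.29 to 4.62 in LRC and 4.21 to 4.73 in non-LRC. B cell genes (4 of 5) lay at 3.94 to 4.32 in LRC and 4.03 to 4.38 in non-LRC, and T and NK cell genes (4 of 5) at 3.11 to 3.34 in LRC and 2.94 to 3.67 in non-LRC. Megakaryocyte genes (5 of 5) lay at 5.22 to 5.30 in LRC and 5.05 to 6.27 in non-LRC. Ms4a1, Cd3g and Ppbp, which mark B cells, T cells and platelets, were below the lower quartile on all 6 arrays. Each was the only measured gene of its list to be so. Cd79b (5.52 to 7.17), Pf4 (5.62 to 7.75), Itga2b (7.07 to 7.80) and Gp9 (6.04 to 6.99) were above the array medians on every array. The HSC genes (8 of 10) overlapped too, at 8.49 to 8.82 in LRC and 8.41 to 8.81 in non-LRC. The Ifitm1 difference was 0.57 without non-LRC replicate 1 and 0.49 without LRC replicate 3; the part of other cells in the family's values was not tested beyond this.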

How the data were processed

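Expression was measured on 6 Affymetrix arrays, 3 of LRC and 3 of non-LRC HSCs. The deposited values are log2 expression per probe set; RMA (background correction, quantile normalization, probe summary) is the method in the submitters' processing notes, which give no version, and the log base was read from the range of the values. Quantile normalization hides any change of total RNA per cell. With no read depth, the number of arrays limits the precision.

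Of 45101 probe sets, 64 controls were left out. Of the rest 34945 named 1 gene in the platform annotation, 932 several and 9160 none; listed genes that no such probe set names are not analysed here. Where a gene had several, the one with the highest mean stood for it. Groups were taken from sample titles, and LRC minus non-LRC was fitted with limma 3.58.1 (lmFit, eBayes, no covariate) in R 4.3.3 over all 45037 probe sets, with Benjamini-Hochberg adjustment and a threshold of 0.05; errors of differences are its moderated standard errors. The fit was tested on simulated data. P-values measure the spread between these samples, described as independent biological replicates. The members, gene lists and settings were chosen with earlier results of these data known, and the promoter motifs after the sequences had been seen. The naming rule took all 4 members, a fixed set of interferon genes, every measured partner, dispanin and neighbour, and the genes of nearest pattern (5 for Ifitm1, 3 for each relative) with 0.5 to 2 times the member's SD. No list was tested as a set. Alternatives covered normalization, a filter at the 40th percentile, moderation, array weights, the replicate block, leaving out arrays, thresholds, probe set averaging and control brightness.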

Additional observations from a re-analysis of the deposited data

How the results depend on the processing

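The Ifitm1 difference was above 0 in 15 of 15 alternatives (0.39 to 0.73), as were those of Ifitm2 (0.17 to 0.56) and Ifitm3 (0.06 to 0.27); that of Ifitm6 was below 0 in 6 of 14 (-0.14 to 0.12), and the filter on dim probe sets left it out. Only 1 of these values moved by more than the spread between replicates, Ifitm1 where LRC replicate 2 alone stood for LRC (0.39), a value without LRC replication. Leaving out single arrays gave 0.49 to 0.73 for Ifitm1. Since Ifitm1 was chosen for its separated groups, these fits and LRC replicate 2 alone could only give a value above 0. The dim filter, the moderation setting, the replicate block and probe set averaging could not change the difference of a member they kept. The 15 of 15 for Ifitm1 is therefore no support for its difference. The medians of the interferon signalling list (0.11 to 0.55) and the neighbours (0.02 to 0.17) kept their sign, and those of the interferon-stimulated (-0.17 to 0.07) and partner lists (-0.11 to 0.13) did not. Limma called 0 probe sets in all alternatives except an unadjusted p under 0.05 (1673). Of 45037 probe sets 3730 had separated groups. Groups of fewer arrays separate more easily by order alone, so counts with arrays left out cannot be set against this number. The number was 2342 with the dim filter, which tests fewer probe sets, and 7177 to 11459 when 1 array was left out. It was 11193 after removing the fitted effect of control brightness and 21250 where LRC replicate 2 alone stood for LRC. For the replicate block, 11634 probe sets had 3 same-numbered differences of 1 sign. That is a looser criterion, since every probe set with separated groups meets it. Removing a fitted effect of control brightness also takes out spread within the groups. The counts of 11193 and 11634 therefore cannot be set against 3730 either. The block called 0, and with each replicate number once in either group it could not change a member's difference. Same-numbered samples deviated together weakly (correlations 0.08, 0.14 and 0.08), though each correlated best with its own number. Differently numbered samples had correlations of -0.09 to -0.01. As no pairing is stated, the block was kept as an alternative only. Whether same-numbered samples shared a preparation was not tested.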
